A study of Mus musculus with 12 samples.

Results

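The genes described here encode the insulin-like growth factor (IGF) binding proteins and the receptors of the IGF, insulin and growth hormone system, in basal cells of the palatal epithelium of mice. They are the 6 binding proteins Igfbp2, Igfbp3, Igfbp4, Igfbp5, Igfbp6 and Igfbp7 and the 4 receptors Igf1r, Igf2r, Insr and Ghr. They were taken by gene symbol from a table of 23420 genes, and all 10 were among the 11719 genes with enough counts to test. They were chosen by their fold changes and adjusted p-values between the sorted GFP-HI and GFP-LO fractions, which were already known, so those values are given as a description and support nothing.

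GFP-HI and GFP-LO cells were sorted from each of 6 FVB mice, which gave 6 libraries per fraction. Every mouse was K5-tTA (+/-); tetO-H2B-GFP (+/-), so both fractions share these transgenes, and every mouse had been given doxycycline for a chase of 14 days, at postnatal day 49 or, in mouse B7F, day 71. The keratin 5 promoter limits the histone-GFP label to cells of the basal keratinocyte lineage, and doxycycline stops its production, so the label is retained where cells divide rarely. Cells stained for CD49f (integrin α6) were sorted, RNA came from 200 to 1000 cells per library, and the submitters describe GFP-HI cells as infrequently dividing.

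IGF1 and IGF2 are secreted growth factors that signal through the tyrosine kinase receptor IGF1R and, for IGF2, also through the insulin receptor. Binding proteins hold the ligands in the extracellular space, where they can keep them from the receptor, prolong their life or deliver them locally, and proteases release the ligand by cutting the binding protein. In skin, keratinocytes carry the receptors and much of the IGF1 is made by dermal fibroblasts. Growth hormone acts through its receptor GHR and the kinase JAK2 on STAT5, whose targets include Igf1 and Socs2.

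Igfbp2 and Igfbp5, on which the comparison of the fractions turns, are neighbours on chromosome 1. In mm10, Igfbp2 spans chr1:72824480-72852471 on the plus strand and Igfbp5 spans chr1:72858065-72874865 on the minus strand, each with 4 annotated exon intervals. Their 3′ ends face each other across 5593 bases, with 0 other genes of the table between them. Their promoters therefore lie at the outer ends of the pair, and are shown because the transcripts of both genes were lower in GFP-HI cells. The sequences run from 250 bases before to 50 bases after the annotated start (RefSeq, GRCm38.p6). That of Igfbp2 lies at chr1:72824230-72824529 on the plus strand and that of Igfbp5 at chr1:72874816-72875115 on the minus strand. Capitals mark matches, searched on both strands, to the GC box GGGCGG, the TATA box TATAAA, the CCAAT box CCAAT and the AP-2 motif GCCNNNGGC.
Igfbp2: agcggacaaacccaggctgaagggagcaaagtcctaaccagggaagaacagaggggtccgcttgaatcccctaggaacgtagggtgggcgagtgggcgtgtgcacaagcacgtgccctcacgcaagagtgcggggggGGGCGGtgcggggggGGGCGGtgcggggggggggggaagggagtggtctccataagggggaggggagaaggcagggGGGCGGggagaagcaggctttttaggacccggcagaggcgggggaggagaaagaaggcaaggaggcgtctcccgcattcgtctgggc
Igfbp5: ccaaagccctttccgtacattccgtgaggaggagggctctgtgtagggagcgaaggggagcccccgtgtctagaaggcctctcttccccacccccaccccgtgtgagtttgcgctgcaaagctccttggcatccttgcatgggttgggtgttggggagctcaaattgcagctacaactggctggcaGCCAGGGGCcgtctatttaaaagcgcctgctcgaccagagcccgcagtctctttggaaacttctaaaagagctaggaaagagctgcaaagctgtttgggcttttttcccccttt

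The Igfbp2 promoter held 3 GC boxes, which began 113, 98 and 37 bases before the start, and no match to the other 3 motifs. The Igfbp5 promoter held 1 AP-2 motif, 64 bases before the start, and no match to the other 3. No marked matches overlapped in either promoter. Of 32817 promoters of the same length, 35.63% held a GC box, 16.58% an AP-2 motif, 13.62% a TATA box and 37.39% a CCAAT box. The Igfbp2 promoter had 67% G and C and 18 CG pairs, the Igfbp5 promoter 56.33% and 10, against medians of 52.67% and 7 over all promoters.

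The libraries held 6678444 to 10547665 counts and 12312 to 19023 detected genes, the fewest in GFP-HI cells of B1M (12312) and B3M (12810). The ribosomal RNA gene Rn45s took 31.5% of these counts (GFP-HI cells of B1M) to 59.8% (GFP-HI cells of B4M, the library with the most counts). The depth left for other genes is therefore smaller, and Rn45s is part of the total behind the TPM given below. The limit that a count of 0 allows, 3 counts, came to 0.258 to 0.433 CPM (counts per library, scaled to a common effective total) and covers counting error only. Markers of the labelled cell type were abundant: the 12 basal keratinocyte markers summed to 16443 to 25226 CPM in GFP-HI libraries, against 19407 to 26176 CPM in GFP-LO libraries, led by Krt14, Krt5 and Col17a1. Of these 12, 0 were called between the fractions. Markers of endothelial cells summed to 0.368 to 7.64 CPM in GFP-HI libraries, against 0 to 4.46 CPM in GFP-LO libraries, and immune markers to 1.71 to 25.0 CPM in GFP-HI libraries, against 0.377 to 33.0 CPM in GFP-LO libraries. Suprabasal keratinocyte markers, led by Krt76, Krt13 and Krt10, summed to 1242 to 3722 CPM in GFP-HI libraries, against 1319 to 2612 CPM in GFP-LO libraries, and 0 of the 9 tested were called. Merkel cell markers (Isl1, Krt8 and Krt18 highest) summed to 21.6 to 37.1 CPM in GFP-HI libraries, against 13.2 to 31.3 CPM in GFP-LO libraries, with a median log2 fold change of 0.33. Schwann cell markers, led by Ncam1 and Mbp, summed to 11.9 to 44.1 CPM in GFP-HI libraries, against 16.6 to 21.7 CPM in GFP-LO libraries. Pericyte and smooth muscle markers, led by Cspg4 and Notch3, summed to 132 to 175 CPM in GFP-HI libraries, against 117 to 165 CPM in GFP-LO libraries, and melanocyte markers, led by Mitf and Pmel, to 9.01 to 18.2 CPM in GFP-HI libraries, against 7.30 to 11.6 CPM in GFP-LO libraries. None of the tested markers of these 4 cell types was called by edgeR.

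The levels of the binding proteins spanned a wide range, and Igfbp2 and Igfbp3 supplied most of the binding protein transcripts. On the scale of TPM, which divides counts by exonic length and sets each library to a common total, the geometric means over the 6 mice were 657 for Igfbp2 and 312 for Igfbp3. Igfbp4, which binds IGFs until the protease PAPP-A cuts it, followed at 46.9 TPM, and Igfbp7, a secreted relative with weak affinity for IGFs, at 26.1 TPM. The signalling receptor Igf1r had 22.0 TPM and Igf2r, the receptor that carries IGF2 to lysosomes, 18.6 TPM. Below them in TPM were Ghr (11.6), Igfbp5 (9.16), the insulin receptor Insr (8.61) and Igfbp6 (1.26), which prefers IGF2.

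Of the 9 pairs of neighbours in this order of TPM, 4 stood in the same order in 6 of 6 mice. These were Igfbp2 over Igfbp3, Igfbp3 over Igfbp4, Igf2r over Ghr and Insr over Igfbp6. Each gave p = 0.03125 in an exact two-sided sign-flip permutation test over the 6 mice, the smallest p that 6 mice allow, and 0.0703 adjusted over the 9 pairs, so none passed at 0.05. Igf1r stood over Igf2r in 5 mice (exact sign-flip p = 0.0625) and Igfbp4 over Igfbp7 in 4 (exact p = 0.1875). Igfbp7 and Igf1r, Ghr and Igfbp5, and Igfbp5 and Insr were in order in 4, 3 and 3 mice and did not differ beyond their spread (exact sign-flip p = 0.59375, 0.46875 and 0.75).

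**Figure D1:**
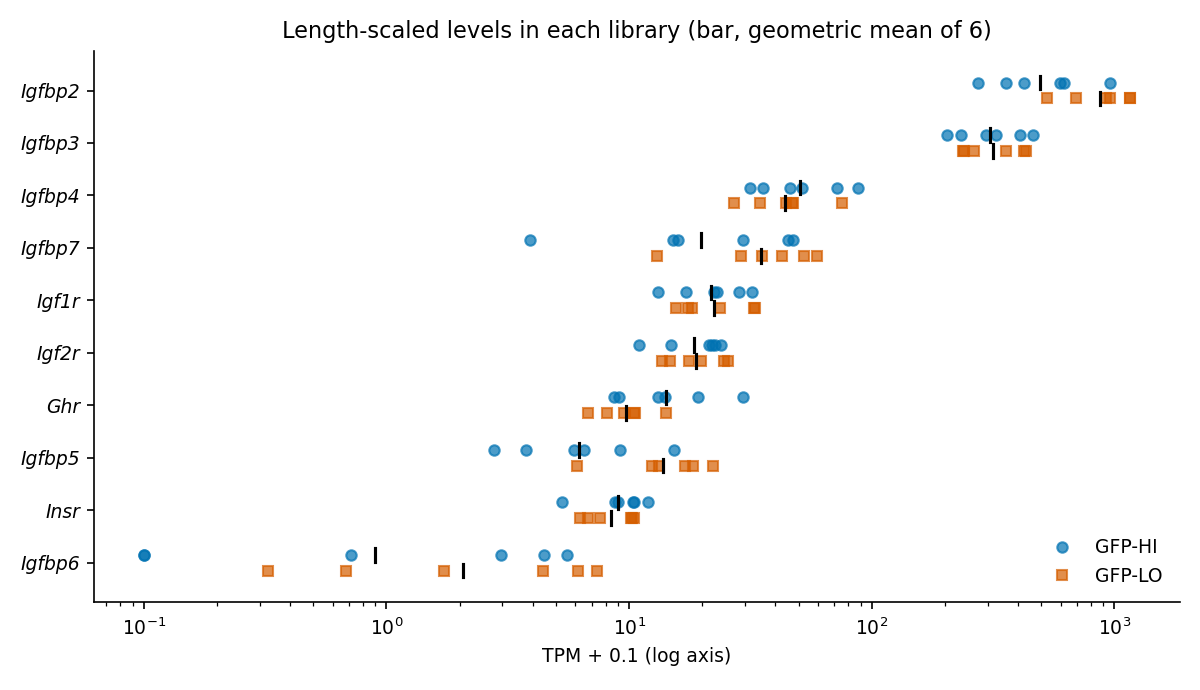
TPM plus 0.1, on a log axis, of each gene in the 6 GFP-HI libraries (circles, upper row of each gene) and the 6 GFP-LO libraries (squares, lower row), with bars at the geometric means. Igfbp2 and Igfbp3 sit above all other genes, and Igfbp6 is at the pseudocount in 2 GFP-HI libraries.

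In the comparison of the fractions, which asks how basal cells that kept the label differ from those that lost it, Igfbp2 and Igfbp5 were lower in GFP-HI cells. They were the 2 genes of the 10 called at an adjusted p under 0.05 (edgeR's quasi-likelihood test with mouse as a block, Benjamini-Hochberg over all genes), and 0 were higher. Over all 11719 genes, 0.0597% were called lower and 0.469% higher, 0.529% in all. At an unadjusted p under 0.05 there were 3 lower and 2 higher among the 10, and 7.24% in all among the tested genes. None of the 10 had fractions that did not overlap, against 0.128% of all tested genes with every GFP-HI library below and 0.0683% above. The share of 20% among the 10 genes follows from how they were chosen, and nothing is read from it. The median log2 fold change was −0.70 for the 6 binding proteins, 2 of them positive, against −0.02 for all genes tested. For the 4 receptors it was 0.13, and all 4 were positive, which rested on single mice. Without B1M, the log2 fold changes of Igf1r and Igf2r were −0.05 and −0.04, and without B7F that of Igf2r was −0.01. In bulk libraries, fewer cells that express a gene and less RNA of it per cell cannot be told apart.

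Igfbp2, an abundant secreted binding protein, had 211, 326 and 661 CPM (lowest, median and highest library) in GFP-HI cells, against 450, 619 and 764 CPM in GFP-LO cells. The ranges overlapped, because the GFP-HI cells of B3M and B4M stood above the GFP-LO libraries of B1M, B5M and B7F. Within each mouse the GFP-HI library was the lower one. The log2 difference was −1.16 in B7F, −0.95 in B1M, −0.90 in B7M, −0.81 in B5M, −0.44 in B4M and −0.10 in B3M. Igfbp2 averaged 390 ± 181 CPM in GFP-HI cells, against 606 ± 133 CPM in GFP-LO cells (SD, n = 6 each), and its fitted log2 fold change was −0.73 ± 0.11 (SE, edgeR adjusted p = 0.0072). Without mouse as a block the call was lost, for Igfbp5 too (edgeR adjusted p = 1.00 for both), as were all calls in the table, 0 of 11719 genes being called either way.

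Igfbp5, a binding protein that also attaches to extracellular matrix, showed the widest difference of the 10 by fitted log2 fold change. It had 9.08, 22.4 and 39.7 CPM (lowest, median and highest) in GFP-HI cells, against 23.7, 45.1 and 57.8 CPM in GFP-LO cells. The ranges overlapped through B7F, which was lowest in both fractions, and B7M, which was highest in both. The log2 difference within mice was −2.07 in B1M, where Igfbp5 had 10.8 CPM in GFP-HI cells, against 46.1 CPM in GFP-LO cells, and lay between −1.36 and −0.54 in the other 5. Igfbp5 averaged 22.0 ± 11.4 CPM in GFP-HI cells, against 42.6 ± 11.3 CPM in GFP-LO cells (SD, n = 6 each), with a fitted log2 fold change of −1.06 ± 0.19 (SE, edgeR adjusted p = 0.020). The call was kept without B1M, the mouse with the widest difference, and without B7M (edgeR adjusted p = 0.0040 and 0.034). It was lost without B3M, B4M, B5M or B7F (0.072, 0.10, 0.064 and 0.10). With the 68 clustered histone genes left out of the fit it was lost too (0.078). Leaving out 1 mouse at a time gave log2 fold changes from −1.17 (without B7M) to −0.86 (without B1M). Without B3M, B4M, B5M and B7F, the genes called lower over the whole table were 4, 2, 3 and 5, against 7 with all mice.

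Both genes were lower in GFP-HI cells in 6 of 6 mice, which 2.6% of all tested genes also were. Dcn, which encodes a mesenchymal proteoglycan, also fell, averaging 327 ± 83.9 CPM in GFP-HI cells, against 456 ± 92.2 CPM in GFP-LO cells (SD, n = 6 each). Its log2 fold change was −0.49 ± 0.07 (SE), with an edgeR adjusted p of 0.0031. It was the 1 called gene of the 12 fibroblast markers. Of the 8 tested, 3 had log2 fold changes below 0 and 5 above, the median was 0.16, and Col1a1, Col1a2 and Vim stood at 1.55, 1.11 and 1.08 (edgeR adjusted p = 0.69, 0.82 and 0.80). The 12 markers summed to 338 to 571 CPM in GFP-HI libraries, against 435 to 688 CPM in GFP-LO libraries, mostly Dcn, Thy1 and Fbln1. The other 9, with Col3a1, Lum and Pdgfra among them too, averaged 0 to 6.04 CPM in either fraction, and Lum was at 0 in every GFP-LO library. The part of fibroblasts in the levels of Igfbp2 and Igfbp5 was not tested.

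**Figure D2:**
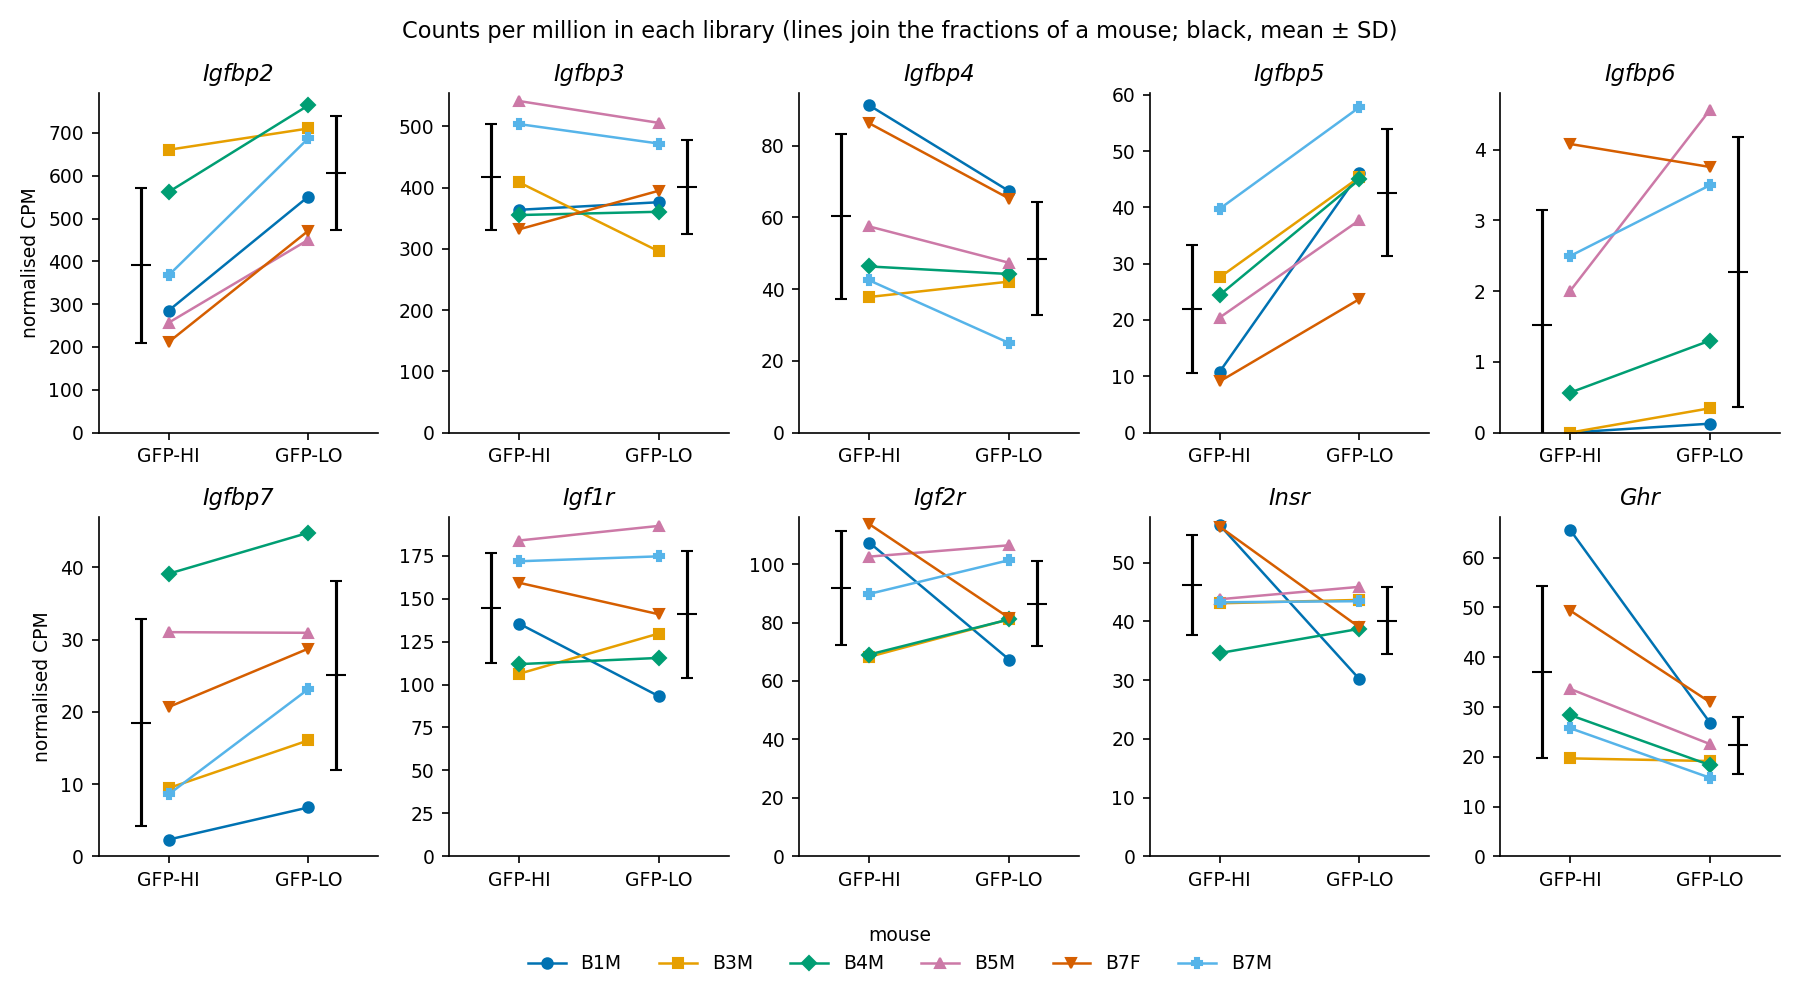
Normalised CPM of each gene in every library, GFP-HI left and GFP-LO right, with a line for each mouse and black bars for mean ± SD (n = 6). The lines of Igfbp2 and Igfbp5 are lower at GFP-HI in all 6 mice and those of Ghr higher.

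Igfbp3, the main carrier of IGFs in serum, was not called. It ranged from 332 to 542 CPM in GFP-HI cells, against from 296 to 506 CPM in GFP-LO cells, was higher in GFP-HI in 3 mice and lower in 3, and had a log2 fold change of 0.06 ± 0.08 (SE, edgeR adjusted p = 0.91). As a share of summed binding protein TPM, Igfbp2 made up 54.9% ± 12.3 in GFP-HI and 67.2% ± 7.50 in GFP-LO libraries, and Igfbp3 34.6% ± 9.29 in GFP-HI and 24.8% ± 6.20 in GFP-LO libraries (SD, n = 6 each). The ratio of Igfbp2 to Igfbp3 in TPM was 0.872 to 2.97 in GFP-HI and 1.64 to 4.41 in GFP-LO libraries. It was lower in the GFP-HI library of every mouse. The shares and the ratio largely restate the difference of Igfbp2, which was known when the genes were chosen, and nothing further is read from them.

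The other 3 binding proteins did not pass the test. Igfbp7 had 2.33, 15.1 and 39.1 CPM (lowest, median and highest) in GFP-HI cells, against 6.78, 26.0 and 44.8 CPM in GFP-LO cells. The ranges overlapped almost wholly, yet within mice it was lower in GFP-HI in 5 of 6. Its log2 fold change was −0.67 ± 0.22 (SE), with an unadjusted edgeR p of 0.0079 and an adjusted p of 0.41. Its exons share 89 bases with Polr2b on the opposite strand, and the strand setting of the counting is not given in the sources used here, so reads there cannot be assigned. Igfbp4 averaged 60.3 ± 23.1 CPM in GFP-HI cells, against 48.5 ± 15.8 CPM in GFP-LO cells (SD, n = 6 each) and was higher in GFP-HI in 5 of 6 mice (log2 fold change 0.30 ± 0.12 SE, edgeR adjusted p = 0.64). Igfbp6 was scarce, at 0 to 4.08 CPM in GFP-HI libraries, against 0.126 to 4.56 CPM in GFP-LO libraries. It had 0 counts in GFP-HI cells of B1M and B3M, the libraries that detected the fewest genes, and was lower in GFP-HI in 5 of 6 mice (edgeR adjusted p = 0.80).

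Among the receptors, Ghr lay nearest to the threshold from outside. It had 19.7, 31.0 and 65.6 CPM (lowest, median and highest) in GFP-HI cells, against 15.8, 20.9 and 31.0 CPM in GFP-LO cells. The ranges overlapped, yet the GFP-HI library was the higher one in 6 of 6 mice, as for 3.34% of all tested genes. The log2 difference was 1.28 in B1M, 0.04 in B3M and 0.57 to 0.70 in the other 4. The fitted log2 fold change was 0.66 ± 0.16 (SE) with an edgeR adjusted p of 0.14. Ghr was called in 3 of 15 alternatives: with DESeq2 (adjusted p = 0.020), without a filter on low counts (edgeR, 0.025) and without B1M and B3M (edgeR, 0.012). The last of these was added after the data were seen. Leaving out 1 mouse at a time gave no call, with edgeR adjusted p from 0.079 (without B3M) to 0.44 (without B7M).

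The other 3 receptors were not called. Igf1r averaged 145 ± 32.0 CPM in GFP-HI cells, against 141 ± 36.9 CPM in GFP-LO cells, Igf2r 91.8 ± 19.5 CPM in GFP-HI cells, against 86.5 ± 14.6 CPM in GFP-LO cells, and Insr 46.2 ± 8.49 CPM in GFP-HI cells, against 40.1 ± 5.64 CPM in GFP-LO cells (SD, n = 6 each). Their log2 fold changes were 0.05 ± 0.10, 0.07 ± 0.13 and 0.19 ± 0.15 (SE; edgeR adjusted p = 0.94, 0.93 and 0.82). Within mice, each of these 3 was higher in GFP-HI in B1M and B7F and lower in the other 4. The log2 differences in B1M were 0.54 for Igf1r, 0.67 for Igf2r and 0.90 for Insr, the highest of the 6 mice for each. B1M also had the widest differences of Igfbp5 and Ghr. Its Schwann cell markers summed to 44.1 CPM in GFP-HI cells, against 16.6 CPM in GFP-LO cells. Only 2 of these 5 markers were tested, 1 of them with a log2 fold change below 0, and 3 were at 0 in some libraries. Pericyte and smooth muscle markers in B1M summed to 156 CPM in GFP-HI cells, against 117 CPM in GFP-LO cells. The GFP-HI library of B1M also detected the fewest genes (12312). The part of these features in the differences was not tested.

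**Figure D3:**
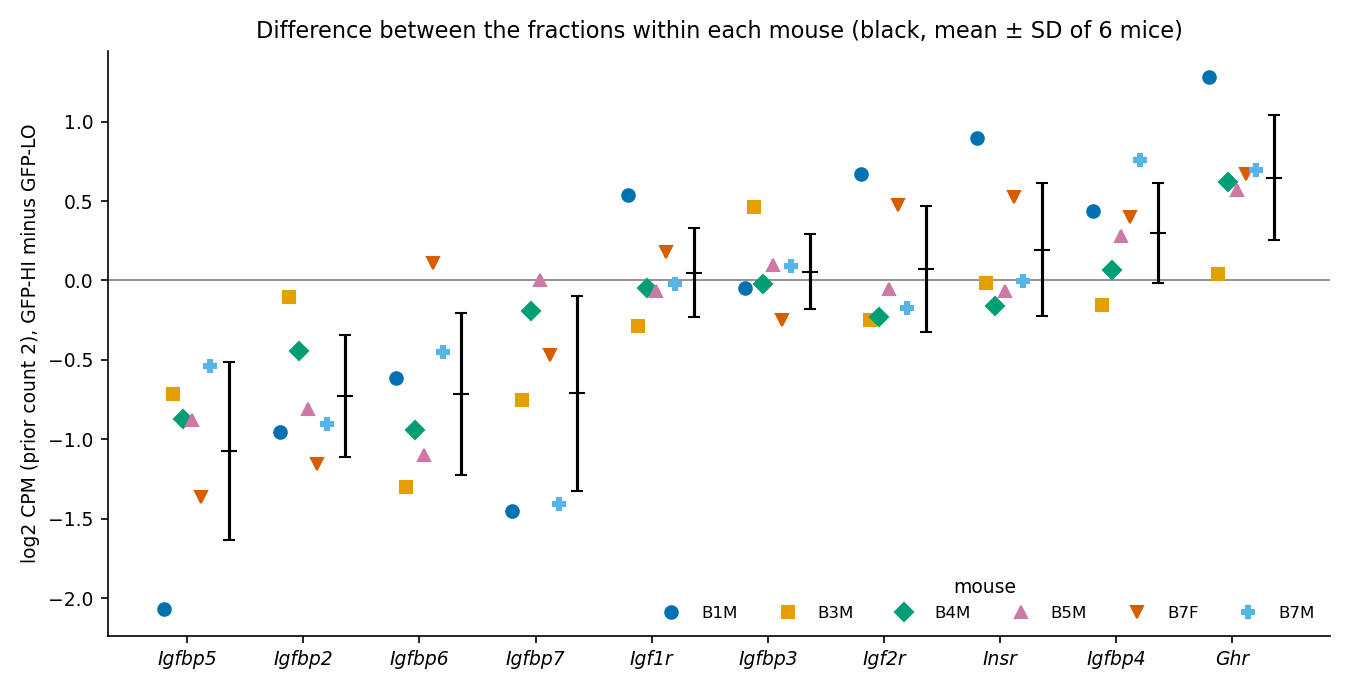
Log2 difference in normalised CPM, GFP-HI minus GFP-LO, of each gene in each mouse, with black bars for mean ± SD of the 6 mice. B1M has the lowest value of Igfbp5 (−2.07) and the highest of Ghr (1.28), and the 3 receptors Igf1r, Igf2r and Insr are above 0 in B1M and B7F alone.

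Levels also differed between the mice, a measure that the choice of genes did not use. In the same fit, an F test of the mouse terms called 8 of the 10 genes (edgeR, adjusted over all genes), against 9.68% of all tested genes and 11.5% of those with at least 5 CPM. Igf2r (adjusted p = 0.46) and Insr (0.92) were not called. The 2 libraries of a mouse share its dissection and handling, and B7F was older, so mouse, age and handling cannot be told apart.

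Igfbp7 differed most in ratio among those called, apart from Igfbp6, where B1M was under the limit of detection. Its mean over both fractions was 42.0 CPM in B4M, 31.0 in B5M, 24.7 in B7F, 15.9 in B7M, 12.8 in B3M and 4.56 in B1M, a 9.20-fold range (edgeR adjusted p = 0.0012). The 2 mice with the least Igfbp7 were also those with the fewest detected genes, and the part of that in the difference was not tested. Igfbp2 ranged from 341 CPM in B7F to 685 in B3M, or 2.01-fold (edgeR adjusted p = 0.0045). Igfbp4 ranged from 33.7 CPM in B7M to 79.3 in B1M, or 2.35-fold (edgeR adjusted p = 0.0069).

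Ghr and Igfbp5 had different orders of mice, with B7F near the top for Ghr and at the bottom for Igfbp5. Ghr was highest in B1M (46.2 CPM) and B7F (40.2) and lowest in B3M (19.4; edgeR adjusted p = 0.039), while Igfbp5 was lowest in B7F (16.4 CPM) and highest in B7M (48.8; adjusted p = 0.044). Igfbp3 ranged from 352 CPM in B3M to 524 in B5M and Igf1r from 114 in B4M to 188 in B5M (edgeR adjusted p = 0.038 and 0.026). Igfbp6 had 3.92 CPM in B7F and 0.0628 in B1M, a value under the 3-count limit (edgeR adjusted p = 0.040). The count of genes called was 3 without B4M, B5M or B7M, 5 without B7F, 6 without B3M and 8 without B1M. At an unadjusted p under 0.05 in the edgeR F test, it was 8, 7, 7 and 6 without B4M, B5M, B7M and B7F. With all mice that unadjusted count was 8.

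**Figure D4:**
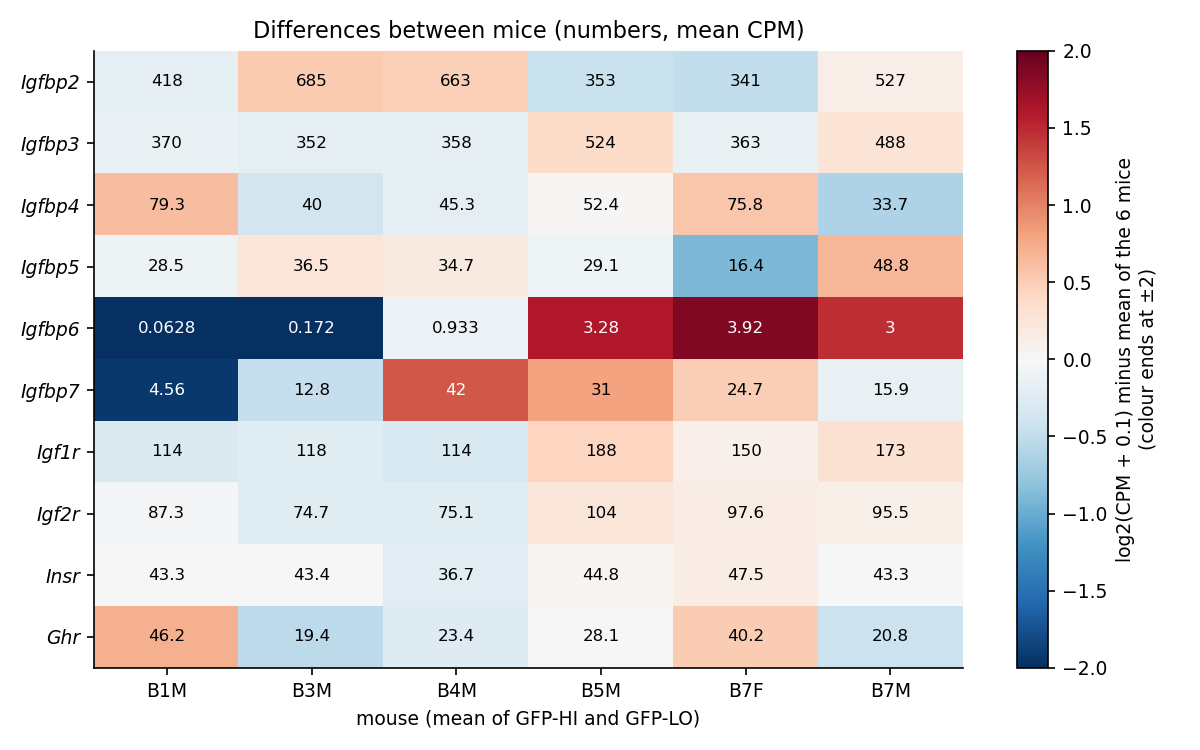
Mean CPM of each gene in each mouse, over its GFP-HI and GFP-LO libraries (printed numbers), coloured by the log2 distance from the mean of the 6 mice, with colours ending at ±2. Igfbp7 and Igfbp6 vary most, from deep blue in B1M to red in B4M for Igfbp7 and in B7F for Igfbp6, and Insr is pale throughout.

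After the group means were taken away, the levels of some of these genes varied together across the 12 libraries, which share mice in pairs. Ghr followed Igfbp4 (Pearson r = 0.93) and ran against Igfbp5 (r = −0.86). Igf2r followed both Igf1r and Insr (r = 0.84 for each), and Igfbp6 followed Igf1r (r = 0.80). Igfbp4 also ran against Igfbp5 (r = −0.82). Igfbp2 followed Igfbp5 more loosely (r = 0.67) and ran against Ghr (r = −0.77), Igf2r (r = −0.745) and Igfbp4 (r = −0.70). Among 9562 other genes, those most like Igfbp2 by this measure were Arf6 (r = 0.95), the basal keratin Krt14 (0.94) and Cenpb (0.93), and those most like Igfbp5 were Fras1 (0.92), which encodes a basement membrane protein, Kif20a (0.91), a mitotic kinesin, and Mpdu1 (0.89). These values describe the 12 libraries.

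Of 68 other genes of the IGF, insulin and growth hormone pathways, 52 could be tested and none was called between the fractions, by edgeR or by DESeq2. The edgeR count at an unadjusted p under 0.05 was 1 higher and 1 lower, of 25 positive and 27 negative fold changes with a median of −0.01 on the log2 scale. The ligands were scarce, and those other than Igf2 averaged close to or under the limit of detection. Igf2, the only tested ligand of 5, averaged 1.75 CPM in GFP-HI cells, against 1.94 CPM in GFP-LO cells (log2 fold change −0.23 ± 0.81 SE, edgeR adjusted p = 0.97), and Igf1 averaged 0.41 CPM in GFP-HI cells, against 0.38 CPM in GFP-LO cells. Gh and Igfbp1 reached at most 3 and 2 counts in any library, and Igfals averaged 1.16 CPM in GFP-HI cells, against 0.933 CPM in GFP-LO cells.

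Transcripts of enzymes that act on binding proteins were detected in both fractions. Of 11 proteases and inhibitors 4 were tested, and those with the most TPM were Ctsd, a lysosomal protease, at 140 TPM in GFP-HI and 158 TPM in GFP-LO, and the serine protease Htra1, at 49.3 TPM in GFP-HI and 53.1 TPM in GFP-LO. Among the adaptors next to the receptors, 10 of 12 were tested, led by Irs2 at 47.2 TPM in GFP-HI and 49.4 TPM in GFP-LO and by the phosphatase gene Ptpn11 at 29.4 TPM in GFP-HI and 32.5 TPM in GFP-LO. All 20 genes of the PI3K, AKT and mTOR branch were tested, with a median log2 fold change of −0.06, and Rheb, which encodes the GTPase that activates mTOR, had 50.5 TPM in GFP-HI and 57.0 TPM in GFP-LO. The 10 FOXO factors and targets had a median of 0.07. They were led by Sesn1 at 58.4 TPM in GFP-HI and 55.2 TPM in GFP-LO and Cited2 at 44.4 TPM in GFP-HI and 46.3 TPM in GFP-LO. These TPM are not TMM-scaled and give levels, while the fit compares the fractions. Fitted log2 fold changes were −0.08 for Ctsd, 0.01 for Htra1, 0.02 for Irs2 and −0.02 for Ptpn11. For Rheb, Sesn1 and Cited2 they were 0.02, 0.18 and −0.10.

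In growth hormone signalling, 7 of 7 genes were tested and their median log2 fold change was 0.04. Socs2, a STAT5 target that restrains the growth hormone receptor, averaged 12.6 ± 3.96 CPM in GFP-HI cells, against 7.81 ± 2.20 CPM in GFP-LO cells (SD, n = 6 each). The GFP-HI library was the higher one in 6 of 6 mice, as for 3.34% of all tested genes, Ghr among them. The log2 fold change of Socs2 was 0.69 ± 0.24 (SE) and did not pass (edgeR adjusted p = 0.50). Socs3, a feedback inhibitor of cytokine receptors, averaged 76.1 ± 19.7 CPM in GFP-HI cells, against 94.1 ± 15.2 CPM in GFP-LO cells (SD, n = 6 each), and was higher in GFP-HI in 1 mouse (log2 fold change −0.33 ± 0.11 SE, edgeR adjusted p = 0.43). Cish, a further STAT5 target, averaged 27.5 CPM in GFP-HI cells, against 29.5 CPM in GFP-LO cells, with a log2 fold change of −0.17 ± 0.16 (SE, edgeR adjusted p = 0.85).

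**Figure D5:**
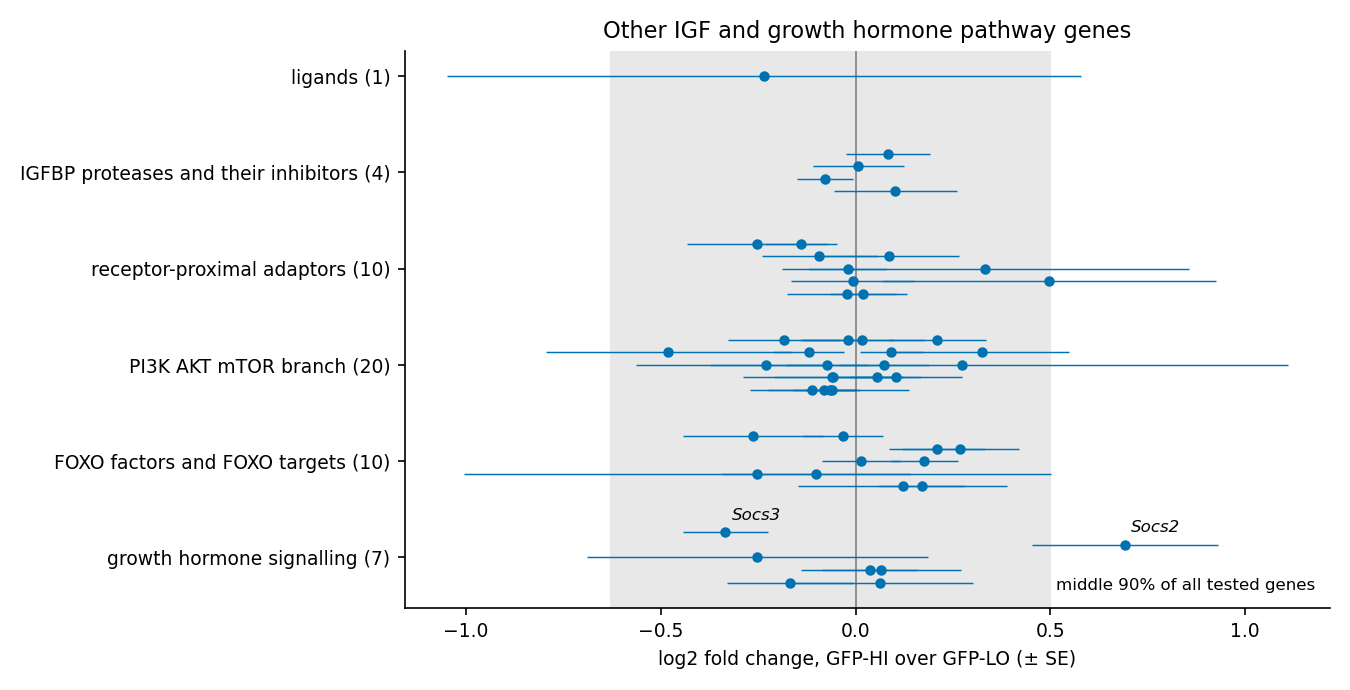
Fitted log2 fold change, GFP-HI over GFP-LO, ± SE, of the 52 tested pathway genes by role, with the number tested in brackets. The grey band spans the middle 90% of all tested genes, from −0.63 to 0.50, and Socs2 (0.69) lies to its right.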

How the data were processed

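Palatal basal cells of 6 mice were profiled as 1 GFP-HI and 1 GFP-LO library each. The deposited values are raw counts of reads per gene, whole numbers, and the file headers also give exon intervals and an exonic length per gene. Per the submitters' processing notes, the tools were featureCounts, DESeq2, FastQC, bcl2fastq 2.20.0 and R 3.4.1, with mm10 and GRCm38. No source used here gives the aligner, annotation release or strand setting.

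Counts were tested in R 4.3.3 with edgeR 4.0.16 after a filter by group (minimum count 10, minimum total 15) and TMM scaling, by a robust two-sided quasi-likelihood test with mouse as a block. Adjusted p-values (Benjamini-Hochberg) cover all 11719 genes tested, with a threshold of 0.05. The SE of a fitted log2 fold change was worked back from the test, as its absolute value over the square root of the F statistic. CPM use the TMM-scaled library sizes. Differences within mice use log2 CPM with a prior count of 2. TPM were computed from counts and exonic length, with 0.1 added before logs. Pairing came from the animal code in the titles, since the series text describes matched samples. As a check, deviations from the group means correlated at 0.23 to 0.49 between the 2 libraries of a mouse. In each mouse this was above the value with the opposite fraction of any other mouse, which was at most 0.26. Libraries of the same fraction were not compared.

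The genes and lists were chosen with earlier results of these data known. Named were all 10 genes, pathway genes with a call, an unadjusted p under 0.05 or among the 2 highest TPM of their list, the 3 highest markers of a list and any marker called, and the 3 genes most like each called gene. Igf1, Col1a1, Col1a2, Vim, Col3a1, Lum and Pdgfra were added after their values were seen. One pathway gene that the rule names is not reported here. Alternatives were DESeq2 1.42.0, other scalings, no filter, no block, leaving Rn45s out of the library size and leaving out each mouse. Insr had no promoter entry among 11 entries for 9 genes, and Igfbp2 and Ghr had 2 entries each. The Igfbp2 entry shown is the one at the start annotated in the table; the entries of Igfbp4 and Ghr begin at other starts than the table gives. None of 66 library pairs held identical values, and 0 sample columns were left unused.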

Additional observations from a re-analysis of the deposited data

How the results depend on the processing

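Without the mouse block, 0 of the 10 genes were called lower (edgeR adjusted p = 1.00 for Igfbp2 and Igfbp5), and 0 of all 11719 genes were called either way, against 55 higher and 7 lower with the block. With the 68 clustered histone genes left out, an alternative added after the data were seen, 1 was called lower (6 genes higher and 3 lower over the table), as the adjusted p of Igfbp5 became 0.078 while its log2 fold change stayed at −1.06. Leaving out each mouse gave 1 to 2 genes called lower, and leaving Rn45s out of the library size gave 2. Igfbp2 was called in 14 of 15 alternatives, with log2 fold changes of −0.85 to −0.63, and Igfbp5 in 9 of 15, with −1.17 to −0.86. The count called higher was 1, Ghr, with DESeq2 (120 higher and 23 lower over the table), with no filter on low counts (127 and 45) and, added after the data were seen, without mice B1M and B3M (117 and 34), and its log2 fold change ran from 0.53 to 0.78. The count of genes that differed between mice was 3 to 8 when each mouse was left out. In the GFP-HI libraries alone, 2 neighbouring pairs kept 1 order in all mice, against 4 over both fractions. The causes were not tested. No gene reversed its direction past the threshold. Short of a call, the log2 fold change fell below 0 for Igf1r in 1 of 15 alternatives and for Igf2r and Igfbp3 in 2 of 15 each. Depth limits Igfbp6 and Igf1, which lay near the 3-count limit in several libraries. It also limits Igf2, which was low and had 0 counts in 1 library. The mice came from 1 strain, no batch is labelled, and the levels at the start of the chase were not analysed here.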

Other observations

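The promoters of the other genes differed in the motifs searched, on the same 300 bases and counted from the RefSeq starts. Igfbp4 held a TATA box that began 28 bases before the start. Igfbp6 held a TATA box on the opposite strand, 148 bases before the start, and 2 CCAAT boxes, 107 and 50 bases before it. Igfbp7 held 4 GC boxes, 1 of them on the opposite strand, Igf2r 3 and Igf1r 2, with 73.33%, 70.67% and 76% G and C. Igfbp3 held none of the 4 motifs at 71.67%. Of the 2 entries of Ghr, 1 held 2 GC boxes, 1 of them on the opposite strand, and 2 CCAAT boxes. In this entry 1 pair of matches overlapped. The other entry held 1 TATA box and 1 CCAAT box, both on the opposite strand.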
